A study of Mus musculus with 2 samples.

Results

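Mirtrons are miRNAs cut from short introns, and 5 mouse hairpins usually counted among them were described in the exosomes of LLC cells, the mouse Lewis lung carcinoma line. The hairpins were miR-1224, miR-877, miR-702, miR-1982 and miR-3102. Both arms of each hairpin were taken, the 5p arm from its left side and the 3p arm from its right, which gave 10 of the 1881 mouse miRNAs on the array. They were found by name among the spots that are not controls. Exosomes were isolated from LLC culture supernatant, and their RNA was hybridized to 2 Agilent mouse miRNA microarrays with Cy3 as the only dye, 1 array for each of 2 independent experiments. The sample labels name no engineered allele and no agent. All samples came from 1 cell line, and neither a control group nor the RNA of the LLC cells themselves is among the samples, so the values describe what was in the exosomes and show no difference between conditions. With 1 group of 2 arrays no test was possible, and errors are given as the SD over the 2 arrays.

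A canonical miRNA hairpin is cut out of its primary transcript by the enzyme Drosha and its partner DGCR8. A mirtron skips that step, because the splicing machinery releases the hairpin as an intron, which is opened, refolded and passed to Dicer. Dicer leaves a duplex of the 5p and the 3p arm, and usually 1 arm is kept as the guide while the other is lost. Introns begin with GU and end with AG, so the 5p arm of a mirtron often starts with GU, and the 3p arm often ends with AG.

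The mature sequences of the 10 arms are shown because each arm is read by its own probes and pairs with its own targets. The seed, bases 2 to 8 from the 5′ end, is in capitals. The sequences are those of RefSeq for the mouse assembly GRCm38.p6, and all 10 arms were matched by name. The prefix mmu marks a mouse miRNA and is left out in the rest of the text.
mmu-miR-1224-5p: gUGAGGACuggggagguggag
mmu-miR-1224-3p: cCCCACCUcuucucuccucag
mmu-miR-877-5p: gUAGAGGAgauggcgcaggg
mmu-miR-877-3p: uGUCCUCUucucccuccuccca
mmu-miR-702-5p: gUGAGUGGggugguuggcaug
mmu-miR-702-3p: uGCCCACCcuuuaccccgcucc
mmu-miR-1982-5p: uUGGGAGGguccuggggagg
mmu-miR-1982-3p: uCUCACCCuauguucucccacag
mmu-miR-3102-5p: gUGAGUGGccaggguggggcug
mmu-miR-3102-3p: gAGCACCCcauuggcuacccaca
Of the 5p arms, 4 of 5 started with GU, and the exception was miR-1982-5p, which starts at position 12 of its hairpin. Among all 663 arms named 5p on the array that had a RefSeq sequence, 5.58% did so. Of the 3p arms, miR-1224-3p and miR-1982-3p ended with AG, which was 2 of 5, against 28.4% of the 675 arms named 3p. The seed of miR-702-5p, UGAGUGG, was also the seed of miR-3102-5p, and both arms began with the same 8 bases. The other 8 arms shared their seed with 0 of the 1608 array miRNAs for which a sequence was at hand.

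Each hairpin lay inside the span of a protein-coding gene in GRCm38.p6. The tables used here give gene spans and not exons, so the intron itself was not looked up. Mir1224 was at chr16:20604452-20604536 on the plus strand within Vwa5b2, which encodes a protein with a von Willebrand factor A domain. Mir877 was at chr17:35960730-35960814 on the minus strand within Abcf1, whose product takes part in the start of translation. Mir702 was at chr5:136991433-136991541 on the plus strand within Plod3, which encodes a lysyl hydroxylase that modifies collagen. Mir1982 was at chr10:80828797-80828870 on the plus strand within Oaz1, the antizyme that limits polyamine synthesis. Mir3102 was at chr7:100882306-100882409 on the minus strand within Arhgef17. Vwa5b2, Abcf1, Plod3 and Oaz1 run on the same strand as their hairpins. The hairpins of Mir1224, Mir877 and Mir1982 started with GU and ended with AG from end to end, as did 2.99% of 1005 mouse hairpins. In contrast, the Mir702 hairpin had neither end. Its GUGAG began at position 10, where miR-702-5p starts, and its last AG ended at position 64 of 109, whereas miR-702-3p spans positions 88 to 109. The hairpin sequence of Mir3102 was not used here, and its 5p arm starts at the first base of the annotated hairpin.

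Each array held 30 spots for every miRNA, spread over 2 to 4 probes for the 10 arms. The intensity of a spot is its fluorescence after Feature Extraction subtracted the background, in arbitrary units. The slide and the scan date were the same for both arrays. Spots marked as outliers were left out, 8 of the 300 member spots on each array. The negative control spots had a median intensity of 0.619 in replicate 1 and 0.739 in replicate 2, and the brightest of them reached 9.45 and 9.35.

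Feature Extraction called 5 of the 10 arms detected on both arrays, where 11.5% of all miRNAs on the array were called. Each of the 5 hairpins gave exactly 1 such arm, which was the 5p arm for miR-1224, miR-1982 and miR-3102 and the 3p arm for miR-877 and miR-702. The remaining arm of miR-877, the 5p, was detected in replicate 1 only. The 4 other arms, miR-1224-3p, miR-702-5p, miR-1982-3p and miR-3102-3p, were detected on neither array, with mean intensities between -0.50 and 2.22. These means lay below the 99th percentile of the negative control spots, 5.91 in replicate 1 and 7.01 in replicate 2, and miR-1224-3p was the brightest of the 4. The percentiles are of single spots, which spread more widely than means over many spots, so they do not show that an arm was absent. Of the spots kept for these 4 arms, 0 were brighter than the brightest negative control spot on either array. A stricter call, which asked that at least 50% of the spots of some probe be well above background, was met by 4 of the 10 arms on both arrays and by 7.07% of all miRNAs, and the arm lost was miR-1982-5p. A looser call, which asked that they be positive and significant, was met by 7 of the 10 arms and by 25.2% of all miRNAs, and the arms gained were miR-1224-3p and miR-877-5p.

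**Figure D1:**
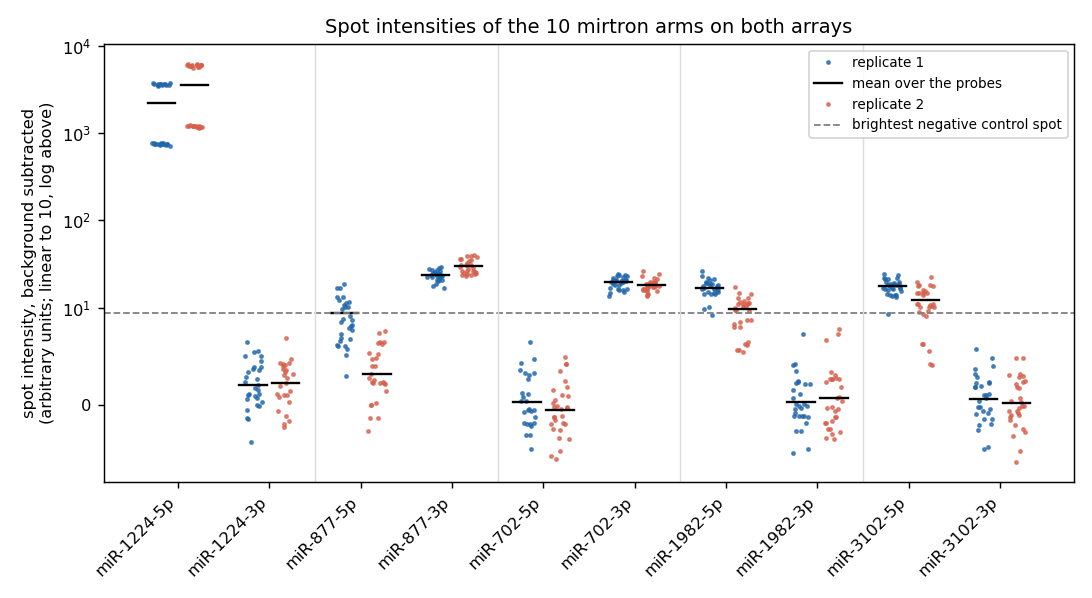
Intensity of every spot kept for the 10 mirtron arms, in arbitrary units on an axis that is linear up to 10 and logarithmic above, with replicate 1 in blue and replicate 2 in red. Black bars are the mean over the probes of an arm and the dashed line is the brightest negative control spot, 9.45. In each hairpin the mean of 1 arm lies above the line on both arrays, and the spots of miR-1224-5p form a bright and a dimmer group because its 2 probes differ.

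The miR-1224 hairpin had the brightest arm of the set. The mean intensity of miR-1224-5p was 2184 in replicate 1 and 3558 in replicate 2. Its 3p arm had 2.05 and 2.22 on the same arrays, above the median of the negative control spots but within the range of single control spots. The first probe of the 3p arm had 0.866 and 1.31, and the second had 3.24 and 3.13. The arms did not overlap on either array, and the 3p probes were not well above background, so the distance between the arms has only a lower bound. With the dim arm set to the lowest probe that was well above background on its array, the 5p signal was at least 126.5-fold higher in replicate 1 and 199.6-fold in replicate 2, a mean bound of 7.31 on the log2 scale, which was 4.96 with normexp background correction. Since probes can differ in how strongly they bind, this and every other comparison between arms concerns signal and not the number of molecules.

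The 2 probes of miR-1224-5p agreed on the change between the arrays and disagreed on the level. The first probe had a mean of 748 with an SD of 16.6 over its 15 spots in replicate 1, and 1191 with an SD of 21.5 in replicate 2. The second had 3619 with an SD of 80.6 over 14 spots and 5925 with an SD of 177 over 15. Spots of a probe are technical repeats of 1 hybridization, and their spread was far below the distance between the probes, which was 4.84-fold in replicate 1 and 4.98-fold in replicate 2. Replicate 2 over replicate 1 gave a ratio of 1.59 for the first probe and 1.64 for the second. The median ratio over the 216 miRNAs detected on both arrays was 0.940, and 32.4% of them had a ratio above 1. After each array was scaled as described further on, however, the median difference of the same miRNAs, replicate 2 minus replicate 1, was 0.21 on the log2 scale, and that of miR-1224-5p was 1.02. The signal of miR-1224-5p was thus higher in replicate 2 with and without scaling, whereas the direction of the median miRNA depended on it.

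The miR-877 hairpin was the only one in which Feature Extraction called both arms detected, and this held for replicate 1 alone. The mean intensity of miR-877-3p was 23.4 in replicate 1 and 29.9 in replicate 2. For miR-877-5p it was 9.43 and 3.13. The 3p arm was brighter on both arrays, 2.64-fold in replicate 1 by the scaled levels defined further on, and by at least 1.78-fold in replicate 1 and 2.21-fold in replicate 2 when the 5p arm was set to its bound. The mean bound was 0.99 on the log2 scale and 0.24 with normexp. All 4 probes of miR-877-3p were detected on each array, and 28 of its 28 spots kept lay above the brightest negative control spot on both. Of the 4 probes of miR-877-5p, 3 were detected in replicate 1, and their total signal was 3.30 and 3.37 times its error and, for the last of them, just above the limit of 3. The remaining probe reached 2.24 times its error there, and in replicate 2 the 4 probes reached from 0.54 to 1.43 times. The detection of the 5p arm thus rested on probes just past the limit.

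Between the arrays, the ratio of replicate 2 over replicate 1 was 1.28 for miR-877-3p, and its 4 probes had ratios from 1.09 to 1.42. For miR-877-5p no ratio is given, because its probes were not detected in replicate 2. There, 0 of its 28 spots kept were brighter than the brightest negative control spot, against 12 of 30 in replicate 1. The arm miR-877-5p was 1 of 37 miRNAs that were detected in replicate 1 only.

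**Figure D2:**
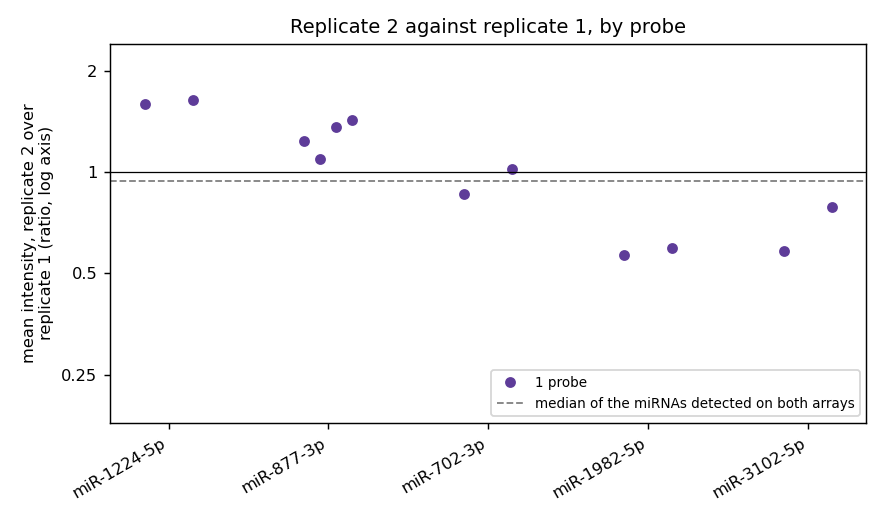
Mean intensity of each probe in replicate 2 divided by that in replicate 1, on a log axis, for the 5 mirtron arms detected on both arrays. Each point is 1 probe and the dashed line is the median ratio of the miRNAs detected on both arrays, 0.940. The probes of miR-1224-5p and miR-877-3p lie above it, those of miR-1982-5p and miR-3102-5p below it, and those of miR-702-3p on either side.

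In the miR-702 hairpin the 3p arm carried the signal. The mean intensity of miR-702-3p was 19.5 in replicate 1 and 18.2 in replicate 2, and that of miR-702-5p was 0.256 and -0.50. All 30 spots of the 3p arm were brighter than the brightest negative control spot on both arrays, whereas 14 of 27 spots of the 5p arm in replicate 1 and 19 of 30 in replicate 2 were at or below 0. The 3p signal was above the 5p bound by 1.48-fold in replicate 1 and 1.35-fold in replicate 2, a mean of 0.50 on the log2 scale, which was 0.10 with normexp. The ratio of replicate 2 over replicate 1 was 0.935 for the 3p arm, the nearest to 1 among the 5 detected arms.

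The miR-702-5p arm shares its first 8 bases with miR-3102-5p. On the same arrays, however, miR-3102-5p had a mean intensity of 17.5 in replicate 1 and 12.2 in replicate 2 and was detected on both. Of its spots, 29 of 30 and 24 of 30 were brighter than the brightest negative control spot. The arms with a common seed therefore differed in their mean signal on both arrays, although in replicate 2 the brightest spot of miR-702-5p, 4.87, was above the dimmest of miR-3102-5p, 4.11.

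The miR-3102 hairpin is annotated with 4 mature products, an outer pair and an inner pair that lie end to end along the stem. The inner products, which are not among the 10 arms, are shown beside the outer ones to complete the hairpin.
miR-3102-5p.2-5p: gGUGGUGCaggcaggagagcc
miR-3102-3p.2-3p: cUCUACUCccugccccagcca
The outer 5p arm takes positions 1 to 22 of the hairpin, the inner 5p.2 positions 23 to 43, the inner 3p.2 positions 60 to 80 and the outer 3p positions 81 to 103 of 104. The outer 5p and both inner products were detected on both arrays, and the outer 3p arm was the exception. The inner 5p.2 had a mean intensity of 19.2 in replicate 1 and 13.9 in replicate 2. The inner 3p.2 had 19.9 and 16.9. The outer 3p arm stayed at 0.634 and 0.152, near the negative control spots. On the log2 scale of levels, 5p.2 minus 3p.2 was -0.18 ± 0.16 (SD, n = 2 arrays), the outer 5p minus the inner 5p.2 was -0.19 ± 0.09, and the outer 5p minus the inner 3p.2 was -0.37 ± 0.24. The last pair was the widest, with -0.54 in replicate 2. The outer 5p arm was dimmer in replicate 2, where 1 of its 2 probes was not detected, and it passed the bound for the outer 3p arm in replicate 1 by 0.40 on the log2 scale but not in replicate 2, by -0.24. Its brighter probe alone passed the bound on both arrays, with -1.40 against a limit of -1.59 in replicate 2. By that probe the mean bound was 0.39 ± 0.29 (SD, n = 2 arrays), against 0.08 over both probes.

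In the miR-1982 hairpin the 5p arm was the detected one and the dimmest of the 5. The mean intensity of miR-1982-5p was 17.0 in replicate 1 and 9.90 in replicate 2, and that of miR-1982-3p was 0.309 and 0.663. Of the 5p spots kept, 28 of 29 lay above the brightest negative control spot in replicate 1 and 18 of 30 in replicate 2. Both of its probes were dimmer in replicate 2, with ratios of 0.566 and 0.596, and the first was not detected there. No fold between the arms is given, since the 5p arm lay above the bound by 0.35 in replicate 1 and below it by -0.49 in replicate 2 on the log2 scale.

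The arms with detected signal were then set against the whole array. The array held 723 hairpins with both a 5p and a 3p arm. At least 1 arm was detected on both arrays in 20.2% of them, and in 5 of the 5 mirtron hairpins. Among the 146 hairpins with such an arm, only 1 arm was detected in 95.2%. By this call, the pattern of a single arm in 5 of 5 mirtrons was thus that of the array in general. With the looser call on spots, both arms of miR-1224 and both arms of miR-877 were called on both arrays, and the share of the array was not counted for that call. The 5p signal was above the 3p signal on both arrays in 3 of the 5 mirtrons and in 59.6% of the 146 hairpins. With 5 hairpins, how close these shares are cannot be judged. In 139 of the 146 hairpins only 1 arm was detected, so the direction of signal mostly restates which arm was detected. Of the 198 hairpins with both arms that are numbered from miR-6896 to miR-7094, 22.2% had at least 1 arm detected on both arrays, and 68.2% of those had the higher signal in the 5p arm. Of the 175 3p arms with these numbers that had a RefSeq sequence, 77.7% ended with AG. Of the 177 5p arms with these numbers and a sequence, 8.47% started with GU.

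**Figure D3:**
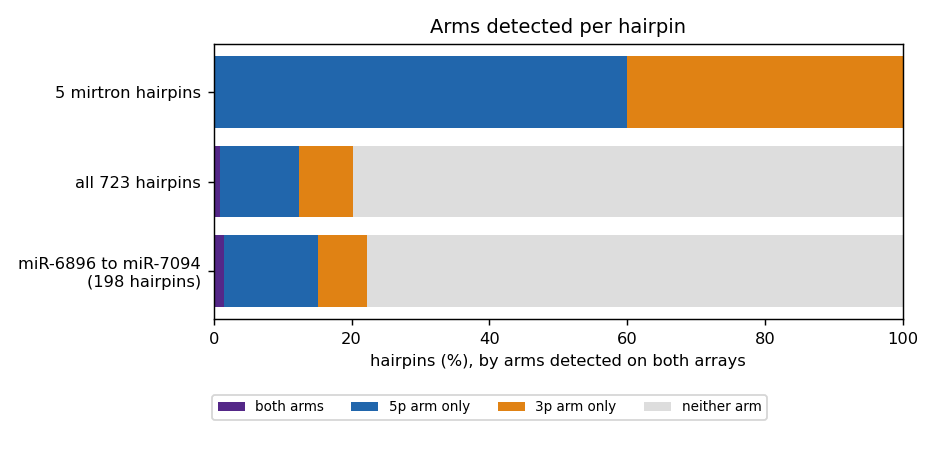
Share of hairpins, in %, with both arms, the 5p arm only, the 3p arm only or neither arm detected on both arrays, for the 5 mirtron hairpins, all 723 hairpins with both arms on the array and the 198 numbered miR-6896 to miR-7094. A single detected arm is the common outcome wherever there is signal, and neither arm was detected in 79.8% of all hairpins.

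To order the arms, each intensity was divided by the 75th percentile of the detected probes of its array, the log2 was taken, and probes were averaged, so that a level of 0 is a bright probe of that array and a level of -1 is a signal lower by a factor of 2. The highest member was miR-1224-5p, with levels of 5.04 in replicate 1 and 6.05 in replicate 2 and a mean of 5.54 ± 0.72 (SD, n = 2 arrays). It had rank 3 of the 216 miRNAs detected on both arrays. The miRNAs nearest to it, by the mean absolute difference of the levels over the 2 arrays, were miR-466i-5p at 0.26, miR-3963 at 0.62 and miR-6769b-5p at 0.68.

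The other detected arms lay in the middle of the list. The level of miR-877-3p was -0.78 ± 0.48, at rank 64. That of miR-702-3p was -1.26 ± 0.16, at rank 89. The arms miR-3102-5p and miR-1982-5p followed with -1.68 ± 0.20 at rank 124 and -1.84 ± 0.34 at rank 134 (SD, n = 2 arrays). The median level of the 216 miRNAs was -1.46, so miR-3102-5p and miR-1982-5p were below it and the others above. The gap between miR-1224-5p and miR-877-3p, 6.15 in replicate 1 and 6.49 in replicate 2, exceeded the spread between arrays many times over. The values of miR-877-3p, from -1.11 to -0.44, and of miR-702-3p, from -1.38 to -1.15, were close without overlapping. Those of miR-3102-5p, from -1.83 to -1.54, lay below both, and those of miR-1982-5p, from -2.07 to -1.60, overlapped with them. The order of miR-3102-5p and miR-1982-5p was thus within the spread between arrays. The difference of miR-1224-5p between the arrays, 1.02, was itself wide, since the median difference over the 216 miRNAs was 0.35 without regard to sign and 26 of them moved further.

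**Figure D4:**
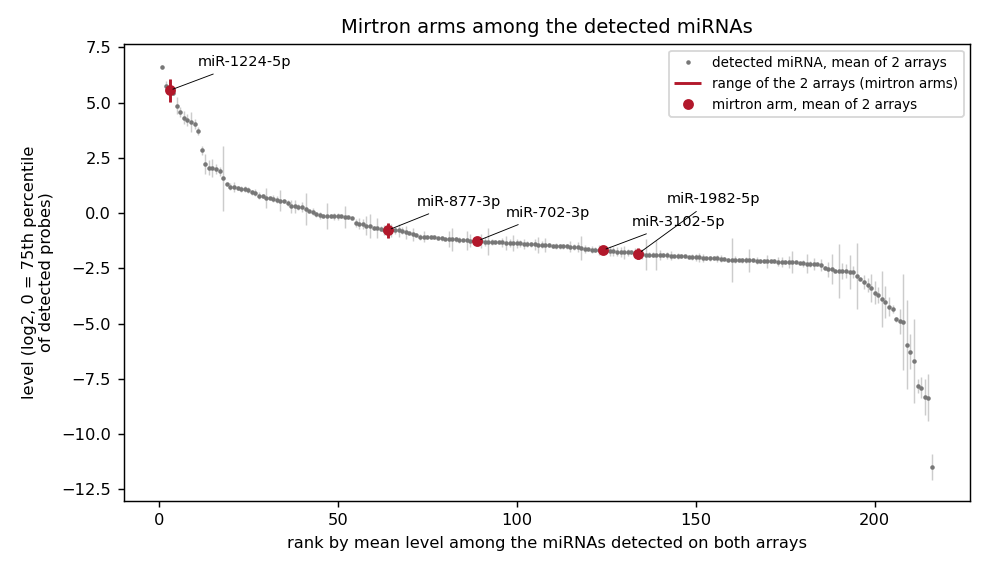
Level of the 216 miRNAs detected on both arrays, on the log2 scale with 0 at the 75th percentile of detected probes, against their rank by mean level. Points are means and vertical lines the range of the 2 arrays, with the 5 detected mirtron arms in red. The arm miR-1224-5p has rank 3, and the other 4 lie between ranks 64 and 134.

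The arms also differed in their bases. The 5p arms were rich in G, from 55.0% to 61.9% of their bases, against a median of 31.8% over the arms named 5p on the array. In 4 of the 5 3p arms C and U made up from 73.9% of the bases in miR-1982-3p to 90.9% in miR-877-3p, against a median of 59.1% over the arms named 3p, and in miR-3102-3p they made up 56.5%. Neither kind was the detected one throughout, since 3 G-rich arms and 2 arms rich in C and U were detected on both arrays. Counting G and C together, 9 of the 10 arms lay above the array median of 52.2%, and the exception, miR-1982-3p, was at it. The detected arms held from 59.1% to 72.7% G and C, and the others from 52.2% to 65.0%, so the ranges overlapped. Over the array, the share of miRNAs detected on both arrays was 6.53%, 9.33% and 18.1% from the lowest to the highest of 3 equal groups by G and C content. The part of base composition in the signal of the members was not tested.

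**Figure D5:**
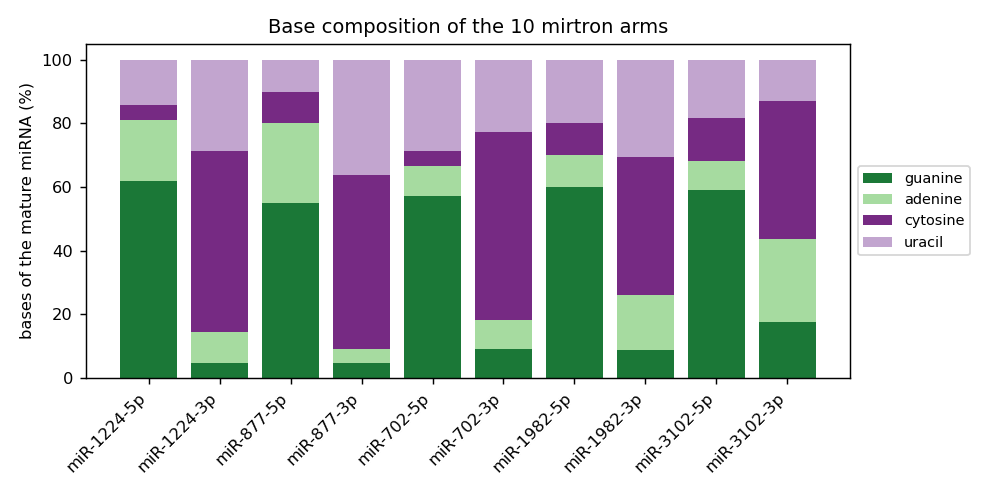
Share of guanine, adenine, cytosine and uracil, in % of the bases of each mature sequence, for the 10 mirtron arms. The 5p arms hold from 55.0% to 61.9% guanine, and the 3p arms are mostly cytosine and uracil.

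Mirtrons are not the only miRNAs made without Drosha. Small hairpins that begin at the transcription start site, as described for miR-320 and miR-484, also skip it, and miR-668 and miR-1839 were listed with them. The array held 7 arms of these, and Feature Extraction called 0 of the 7 detected on either array. Of all miRNAs on the array, 11.5% were called on both, and 7 arms are too few to tell 0 from that share. The stricter call on spots was met by 0 of the 7 on both arrays, against 7.07% of all miRNAs. The looser call was met by 3, against 25.2%, and these were miR-320-3p, miR-484 and miR-668-3p. The brightest was miR-320-3p, with a mean intensity of 7.44 in replicate 1 and 6.34 in replicate 2. It was followed by miR-668-3p with 5.71 and 5.18 and by miR-484 with 4.94 and 4.89. The other 4 arms lay between -2.76 and 1.31. The mean intensities of all 7 were below the brightest negative control spot. Each was also lower than every mirtron arm detected on both arrays, an order that follows largely from the detection call. Against the 4 mirtron arms detected on neither array, which reached at most 2.22, miR-320-3p, miR-668-3p and miR-484 were brighter.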

How the data were processed

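The authors hybridized RNA of LLC-derived exosomes to 2 Agilent mouse miRNA microarrays and deposited the fluorescence intensity of every spot, with the background subtracted and no normalization between arrays. The file header names Feature Extraction 10.7.1.1, whereas the submitters' processing notes name version 9.1. A second file of the authors, deposited as 1 log2 value per miRNA and array, was used as an alternative only, and its scale and centring are not given in the sources used here. The median of each of its columns is -3.32, which is also its lowest value, and both columns hold the same values when sorted, so the arrays share 1 distribution there. The labels describe an RNA kit for blood, globin removal and amplified cRNA, and whether this applied to the exosomes was not settled.

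Control and outlier spots were left out, and 0 spots were saturated. Intensities were divided by the 75th percentile of the 393 probes detected on both arrays. Signals that were not positive took the smallest positive scaled value, and log2 was averaged over spots and then probes. A probe was detected when its total exceeded 3 times its error. For an arm that was not well above background, differences are bounds against the lowest probe of the array with at least 50% of its spots well above background. The design had planned plain differences of levels, which were replaced by these bounds once arms were seen not to be well above background. Precision is limited by the number of arrays.

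The members, the lists and the tests were chosen with earlier results of these data known. The text names the 10 arms, the inner products of miR-3102, the 7 other miRNAs made without Drosha, miRNAs that share a seed with a member and the 3 nearest to the highest member. The computation of levels was tested on simulated arrays. The simulated signals were brighter than those of most detected arms here, so the detection of dim arms and the bounds were not tested. Python 3.11.15, numpy 2.4.6, pandas 2.3.3, matplotlib 3.10.9, R 4.3.3 and limma 3.58.1 (normexp, offset 50) were used.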

Additional observations from a re-analysis of the deposited data

How the results depend on the processing

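The alternatives covered the detection call, the background correction, the summary of spots and probes, outlier spots, the scaling, the deposited log2 table and each replicate left out. The number of arms detected on both arrays was 5, against 4 with the stricter and 7 with the looser call on spots. With each replicate left out it ranged from 5 to 6. The number of hairpins with the higher signal in the 5p arm was 3 under all 10 alternatives, but several of these could hardly change it. A new scaling moves both arms of an array alike. The main count already required both arrays, so leaving a replicate out could not lower it. In the totals, the sums of detected probes and the deposited table, the 4 arms detected on neither array had a fixed low value. The direction there mostly restates the detection call. The bound on the difference between the arms, on the log2 scale, moved from 7.31 to 4.96 with normexp background correction and to 8.46 with the brightest probe for miR-1224. For miR-877 it moved from 0.99 to 0.24 with normexp, and the deposited table gave a difference of 3.90. For miR-702 it moved from 0.50 to 0.10 with normexp. The offset of 50 that normexp adds narrows differences of dim arms by construction. With each replicate left out the bounds ranged from 6.98 to 7.64 for miR-1224, 0.83 to 1.15 for miR-877, 0.44 to 0.57 for miR-702, -0.49 to 0.35 for miR-1982 and -0.24 to 0.40 for miR-3102. For the total signal of Feature Extraction and the sum of detected probes no difference over both arrays was taken. An arm that is not detected has a fixed total of 0.1 and no detected probe to sum. The order of the 5 detected arms was the same under 9 of 10 alternatives. With the total signal of Feature Extraction miR-702-3p fell to the last place, and its level to -1.72. In replicate 2 the totals of miR-1982-5p and miR-3102-5p were above the sums of their own detected probes, as given below. By the sums of detected probes the order was the same as in the main setting. No paired analysis was possible between groups because all samples are of 1 group. Signal over background limits every statement on the 4 arms that were not detected, which may be present below what these arrays can detect.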

Other observations

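The total signal per miRNA in the Feature Extraction output differed from the sum of its own detected probes for 3 of the 5p arms. In replicate 1 the total of miR-877-5p was 13.1 against a sum of 3.20. The excess of 9.89 equalled the total of miR-877-3p to within 0.1%, so that by totals the 5p arm was above the 3p arm in replicate 1, whereas by its own probes it was below. In replicate 2 the total of miR-3102-5p was 10.5 against 3.30, and the excess of 7.16 equalled the total of miR-3102-3p.2-3p. In replicate 2 the total of miR-1982-5p was 9.78 against 2.25, with an excess of 7.54 that equalled the total of miR-195a-3p. In each case 1 miRNA of the array had a total equal to the excess.

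In the deposited log2 table, miR-877-5p stood at 0.44 in replicate 1 and -1.04 in replicate 2, above the lowest value of the table in both columns, although it was not detected in replicate 2. The other 4 undetected arms were at the lowest value. The value of miR-1982-5p in that table was 2.73 in replicate 1 and 0.46 in replicate 2, a wider distance than between its levels from the spots, -1.60 and -2.07. Both columns of that table hold the same values when sorted, so its values reflect the rank of a miRNA on its array.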
